A study of Mus musculus with 9 samples.

Results

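The TRIM (tripartite motif) genes expressed in DC2.4 cells, an immortalised mouse dendritic cell line, were followed across 3 groups of 3 RNA sequencing libraries. A gene was a member if its symbol in the deposited table was Trim followed by a digit and if it had 10 or more read counts in at least 3 of the 9 libraries. This gave 43 members out of 68 such rows, in a table of 21959 genes of which 11634 passed the same count rule. The members were chosen by these counts, which are also the counts compared below, but the rule used no contrast between groups. In 42 members the minimum was met in all 9 libraries. The exception was Trim43a, a member of a mouse gene cluster, which passed through 6 libraries of OMVSSDC and ZJDC only (12 to 19 counts in OMVSSDC and 16 to 29 in ZJDC, against 5 to 7 in PBSDC) and had therefore to be higher in them. Of the 25 rows outside the rule, the nearest, Trim9, Trim67 and Trim69, had 0 to 7 counts per library, and 6 rows had 0 counts in every library.

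The groups are labelled OMVSSDC, ZJDC and PBSDC, each with libraries 1 to 3 from total RNA of that cell line, with no genotype, dose or time given. The series describes exposure of DC2.4 cells to engineered extracellular vesicles in order to find immune-related expression changes. The meaning of OMVSS and ZJ, and which of the groups received those vesicles, are not in the labels. PBS usually stands for phosphate-buffered saline, and PBSDC was taken as the control. One cell line stands for dendritic cells here, and no label ties the libraries of a group to separate cultures, so p-values measure only the spread between libraries, which may be technical.

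TRIM proteins share an amino-terminal RING finger, 1 or more B-boxes and a coiled coil, and most act as ubiquitin ligases: the RING finger recruits a ubiquitin-loaded E2 enzyme, and the carboxy-terminal domain, often a PRY-SPRY domain, selects the target. In myeloid cells they are best known as regulators of innate immunity. TRIM25 attaches ubiquitin to the RNA sensor RIG-I, TRIM21 binds antibody-coated virus in the cytosol, and several family members limit retroviruses or tune Toll-like receptor and NF-kB signalling. Many of these genes are themselves induced by interferon through factors that bind interferon-stimulated response elements (ISRE). Others act outside immunity, in transcriptional silencing (TRIM28), on microtubules (TRIM36, TRIM46) or in neurons (TRIM2, TRIM3). In the annotation of the deposited table, 32 of the 43 members carried the term protein ubiquitination and 23 the term innate immune response.

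Total counts were 12784931 to 18388959 per library, and a level of 3 counts, up to which a count of 0 can hide expression, was equal to 0.163 to 0.235 CPM (read counts after scaling for library size), for counting error only. The libraries of OMVSSDC were not alike. Over all genes the chi-square per degree of freedom was 1.87 between OMVSSDC libraries 1 and 2, but 59.3 and 61.8 between each of them and library 3, which differed from the ZJDC libraries by 7.43 to 10.2. Within ZJDC it was 2.51 to 8.59 and within PBSDC 2.76 to 3.83. Values without OMVSSDC library 3, and with it as the lone OMVSSDC library (the lone library is then assumed to vary like the other groups), are given where they change a statement. Markers of the labelled cell type were in part present: 13 of 16 myeloid or dendritic markers had at least 10 counts in every library, summing to 7044 to 7576 CPM in OMVSSDC, 7117 to 7231 in ZJDC and 6078 to 6211 in PBSDC, while Flt3, Xcr1 and Clec9a, which mark conventional dendritic cells, were at or near 0. The list did not move one way: of its 13 tested genes, 9 rose and 4 fell in OMVSSDC, and 7 rose and 4 fell in ZJDC, against PBSDC (edgeR, adjusted p under 0.05). The 4 that fell were Lyz2 (log2 fold changes of -1.48 in OMVSSDC and -1.63 in ZJDC), Itgam (-1.502 and -1.04), Csf1r (-1.003 and -1.03) and Spi1 (-0.62 and -0.50), and those that rose in both included Cd74 (0.85 and 0.84) and Zbtb46 (1.23 and 0.96). In OMVSSDC the rises of Tyrobp (0.48) and Batf3 (1.06) became -0.05 and 0.53 with library 3 as the lone OMVSSDC library. The OMVSSDC calls of Tyrobp and Fcer1g ended when any of several single libraries was left out (edgeR adjusted p up to 0.121). So did the ZJDC call of Fcer1g (edgeR adjusted p up to 0.108). Heart, muscle and brain markers (3 of 14 with 10 counts in all libraries, Tnnt2 the highest) summed to 7.36, 6.85 and 19.9 CPM in OMVSSDC libraries 1 to 3, 17.5 to 22.9 in ZJDC and 33.4 to 34.7 in PBSDC. Fibroblast or endothelial markers summed to 11.0 to 24.0 CPM in OMVSSDC, 14.7 to 17.9 in ZJDC and 24.99 to 27.7 in PBSDC. Lymphoid markers stayed at or under 1.53 CPM, with Cd3e, Cd8a and Ncr1 at 0, epithelial markers at or under 1.70 CPM, and granulocyte or erythroid markers at or under 9.97 CPM. The part of these marker differences in the results below was not tested.

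Promoter sequences of the members are shown first for the Trim30 genes, because the adjacent paralogs Trim30a and Trim30d held the same ISRE-like match while their log2 fold changes in OMVSSDC over PBSDC were 0.43 and 2.63. Both are mouse genes; Trim30a is known as an inducible brake on Toll-like receptor signalling, and Trim30d is its close relative. RefSeq gives a pair of start windows for Trim30a, both with the match. The 250 bases before the RefSeq start of Trim30d and before the upstream start of Trim30a (GRCm38.p6, minus strand, chr7:104465194-104465443 for Trim30a and chr7:104507850-104508099 for Trim30d) are printed 5′ to 3′, with the match in capitals:
Trim30a: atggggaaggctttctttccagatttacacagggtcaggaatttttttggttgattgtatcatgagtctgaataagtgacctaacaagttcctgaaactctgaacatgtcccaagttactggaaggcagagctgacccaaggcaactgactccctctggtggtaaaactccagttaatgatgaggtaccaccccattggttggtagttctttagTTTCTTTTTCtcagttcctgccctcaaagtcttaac
Trim30d: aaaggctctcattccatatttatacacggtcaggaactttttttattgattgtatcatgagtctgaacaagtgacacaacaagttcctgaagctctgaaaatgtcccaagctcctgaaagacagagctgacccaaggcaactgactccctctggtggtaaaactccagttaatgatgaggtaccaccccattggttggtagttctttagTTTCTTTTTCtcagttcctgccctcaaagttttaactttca
Aligned, they shared 227 bases, with 18 mismatches and 10 gap positions, which is 92.7% identity of aligned bases.

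The motif searched was the ISRE core GAAANNGAAA on both strands, within windows from 250 bases before to 50 bases after each RefSeq start. Windows were found for 31 of the 43 members. The core occurred in 7 of these members and in 8 of their 43 windows (18.6%), compared with 1131 of 32851 windows of the same length (3.44%) over all genes. These windows are not independent. Trim12c and Trim34a lie close on chromosome 7 to Trim30a and Trim30d, whose windows all hold the same core. The other 5 members that held it are shown as 30-base fragments around the match in GRCm38.p6, again with the match in capitals:
Trim12c, chr7:104353359-104353388, minus strand: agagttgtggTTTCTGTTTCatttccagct
Trim34a, chr7:104244457-104244486, plus strand: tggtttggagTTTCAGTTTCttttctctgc
Trim21, chr7:102565447-102565476, minus strand: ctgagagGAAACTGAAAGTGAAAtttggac
Trim26, chr17:36836979-36837008, plus strand: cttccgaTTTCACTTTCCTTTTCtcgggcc
Trim2, chr3:84212791-84212820, minus strand: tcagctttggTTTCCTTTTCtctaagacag
In Trim21 and Trim26 a pair of overlapping matches forms the capitals. The gamma-activated sequence motif TTCNNNGAA (GAS) occurred in 3 of the members' windows (6.98%), against 8.3% of all windows. A match describes letters in a window and is neither a bound site nor a cause of any change. Of the 7 members with the ISRE core, Trim12c, Trim30a, Trim30d and Trim34a rose in both comparisons with PBSDC, and Trim2, Trim21 and Trim26 did not pass the test in either. Of the 24 members with a window but no core, 13 rose and 4 fell in OMVSSDC, and 12 rose and 5 fell in ZJDC, Trim43a among those that rose. Over all genes tested, 33.4% rose and 30.2% fell in OMVSSDC, and 27.6% and 27.1% in ZJDC. Whether the core and the calls go together was not tested.

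In levels per length (FPKM as deposited by the authors, which divides by gene length and library total and is the scale for comparing genes), the members spanned 0.0951 to 71.7 by mean over the 9 libraries. Trim25, the RIG-I ubiquitin ligase, was first, with 92.3 ± 8.96 FPKM in OMVSSDC, 77.6 ± 1.15 in ZJDC and 45.3 ± 2.20 in PBSDC (SD, n = 3 each). Trim30a followed with 74.0 ± 5.82 FPKM in OMVSSDC, 71.5 ± 1.40 in ZJDC and 50.3 ± 3.28 in PBSDC, and then Trim28, the KRAB corepressor KAP1, with 50.5 ± 8.57 FPKM in OMVSSDC, 47.6 ± 4.02 in ZJDC and 82.1 ± 2.41 in PBSDC. The order therefore differed by group: Trim25 ranked first in OMVSSDC and ZJDC, and Trim28 ranked first in PBSDC, followed by Trim30a and Trim25. Trim44, Trim35, Trim8, Trim26 and Trim41 came next by mean over all libraries, at 34.3, 32.4, 27.8, 26.5 and 19.1 FPKM. At the low end were Trim2 (0.0951 FPKM), Trim66 (0.227), Trim30b (0.311) and Trim7 (0.354).

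**Figure D1:**
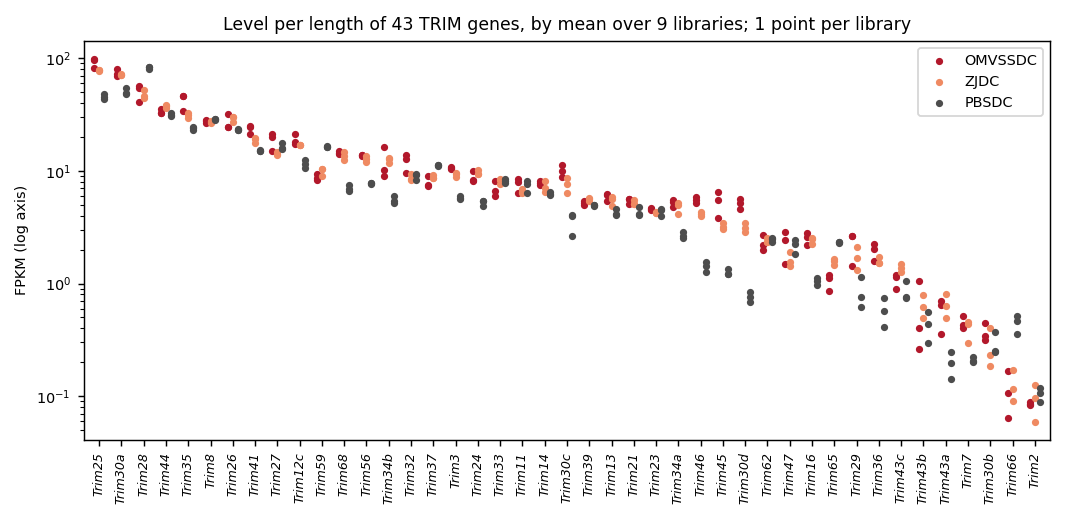
FPKM of the 43 members (log axis), ordered by their mean over 9 libraries, with 1 point per library and colours for OMVSSDC, ZJDC and PBSDC. Trim25, Trim30a and Trim28 lead, and Trim30d, Trim45 and Trim46 show PBSDC points well under those of both other groups.

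Together the members took 0.284%, 0.286% and 0.274% of all counts in OMVSSDC libraries 1 to 3, 0.259% to 0.262% in ZJDC and 0.218% to 0.221% in PBSDC. The 3 groups did not overlap in this share, which is a description and carries no test. In bulk RNA, fewer cells expressing a gene and less of its RNA per cell cannot be told apart.

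Against PBSDC, 22 members rose and 7 fell in OMVSSDC, and 14 did not pass an adjusted p of 0.05 (edgeR quasi-likelihood test, Benjamini-Hochberg over 11568 genes). That is 67.4% of members, beside 63.6% of all genes tested; 51.2% of members rose beside 33.4% of all genes, and 16.3% fell beside 30.2%. The median log2 fold change was 0.31 over the members and 0.05 over all genes. Trim43a, whose direction the count rule fixed, is among the members that rose; without it 21 of 42 rose, 7 of them more than 2-fold. More than 2-fold changes were called in 8 members upward and 3 downward, against 12.9% and 6.87% of all genes. The groups did not overlap in 30 members (69.8%), compared with 65.7% of all genes. So many genes differed between these groups that the share of members called is near the background.

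In ZJDC, 22 members rose, 6 fell and 15 did not pass, relative to PBSDC. This is 65.1% of members, beside 54.7% of all genes; 51.2% rose and 14% fell, beside 27.6% and 27.1% of all genes. The median log2 fold change was 0.28 over the members and 0.01 over all genes, and 8 members rose and 1 fell more than 2-fold, against 9.18% and 3.89% of all genes. Without Trim43a, 21 of 42 rose, 7 of them more than 2-fold. In 33 members (76.7%) the groups did not overlap, beside 72.2% of all genes. The comparisons share the PBSDC libraries, so their likeness is not independent: 20 members were called higher in both (19 without Trim43a), 5 lower in both (Trim28, Trim37, Trim59, Trim65 and Trim66), none in opposite directions and 11 in neither. Those 11 (Trim2, Trim11, Trim14, Trim21, Trim23, Trim26, Trim30b, Trim39, Trim43b, Trim47 and Trim62) had log2 values from -0.47 to 0.50. Joint calls were not counted over all genes, so the counts of members called in both comparisons or in neither have no background beside them. With scaling by library size alone, the median of all genes moved to 0.18 in OMVSSDC against PBSDC, and calls over all genes to 4672 higher and 2819 lower where the TMM scaling gave 3866 and 3492; among members 24 then rose and 5 fell, and no call turned direction.

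**Figure D2:**
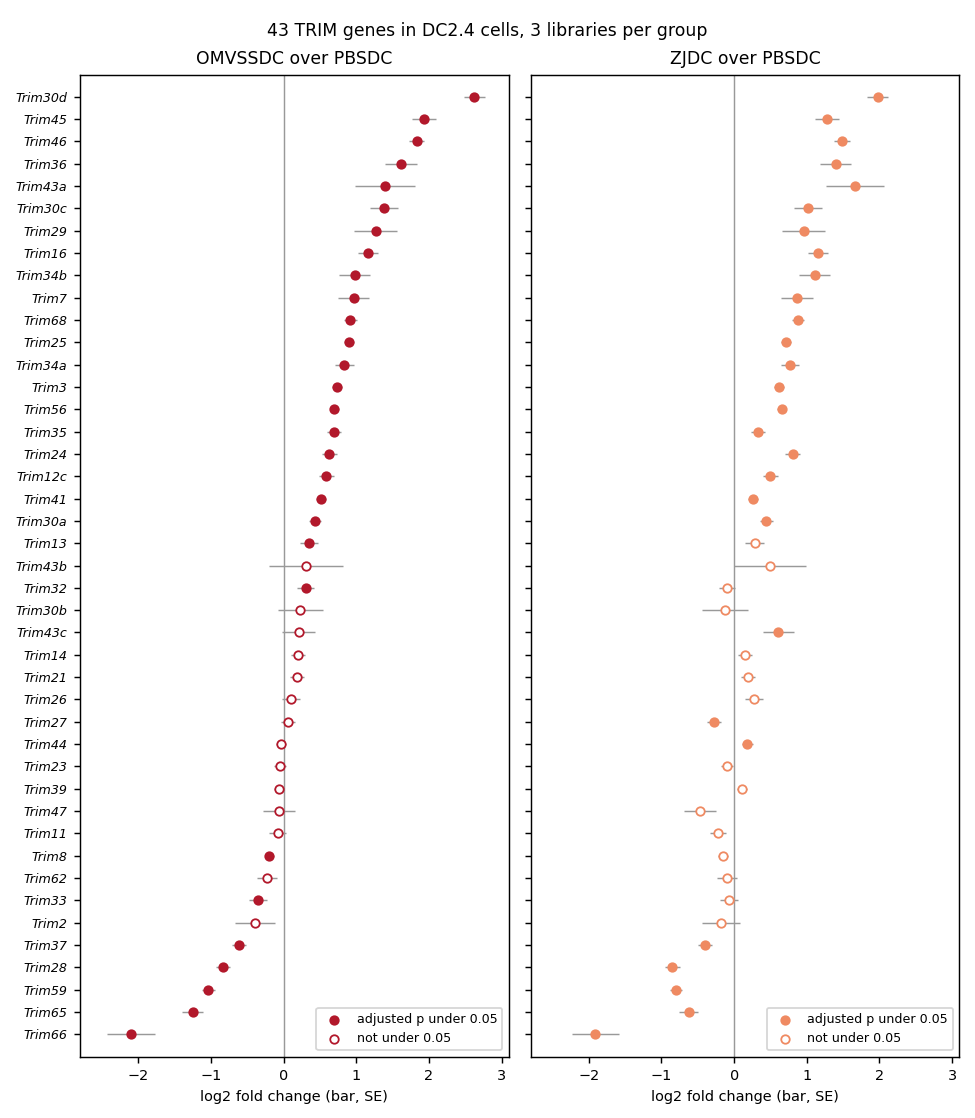
Log2 fold changes of the 43 members in OMVSSDC over PBSDC (left) and ZJDC over PBSDC (right), with the standard error as bars and filled points at adjusted p under 0.05, in the order of the left panel. Trim30d is at the top of both panels and Trim66 at the bottom of both; the count rule fixed the direction of Trim43a.

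Among 13 members with a role in antiviral defence or nucleic acid sensing, 8 rose and 1 fell in OMVSSDC, and the same counts held in ZJDC. That is 69.2% called in each, beside 63.6% and 54.7% of all genes, and 61.5% higher, beside 33.4% and 27.6%. The largest rise was that of Trim30d. It had 16.2, 19.9 and 19.5 CPM (scaled by TMM, as are all CPM of single genes below) in OMVSSDC, 11.0, 12.8 and 11.7 in ZJDC and 3.30, 2.67 and 2.99 in PBSDC. No library of either group came near PBSDC, and the log2 fold change was 2.63 (SE 0.141, adjusted p = 2.16e-07, edgeR) in OMVSSDC and 1.97 (SE 0.144, adjusted p = 2.38e-06) in ZJDC.

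Its neighbour Trim30a was far more abundant and moved less. It had 269.6, 276 and 329.9 CPM in OMVSSDC, 304, 289 and 289 in ZJDC and 209.8, 207 and 232 in PBSDC. All libraries of both groups lay above PBSDC, at log2 fold changes of 0.43 (SE 0.0858, adjusted p = 0.0014, edgeR) and 0.44 (SE 0.0858, adjusted p = 0.00154). Trim30c, another relative, had 14.4, 18.2 and 17.2 CPM in OMVSSDC, 14.9, 12.99 and 10.7 in ZJDC and 4.78, 7.27 and 7.16 in PBSDC, with log2 fold changes of 1.38 and 1.02 (edgeR adjusted p = 0.000109 and 0.00119). Trim30b did not pass in either comparison.

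Trim25 had 522, 531 and 469.7 CPM in OMVSSDC, 452, 454 and 435 in ZJDC and 262, 269.5 and 286 in PBSDC. The 3 groups did not overlap, and the rise over PBSDC was 0.90 (SE 0.0673, adjusted p = 1.74e-06, edgeR) in OMVSSDC and 0.71 (SE 0.0671, adjusted p = 1.27e-05) in ZJDC on the log2 scale. Trim56, which restricts RNA viruses and promotes signalling by STING, had 122, 121 and 125 CPM in OMVSSDC, 120.3, 125 and 111 in ZJDC and 75.7, 74.7 and 75.8 in PBSDC. PBSDC values were close to each other and well under the rest, with log2 fold changes of 0.70 and 0.65 (edgeR adjusted p = 6.08e-06 and 1.44e-05).

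Mouse relatives of the primate retroviral restriction factors TRIM5 and TRIM34 also rose. Trim12c had 60.8, 63.2 and 79.0 CPM in OMVSSDC, 64.4, 63.3 and 62.9 in ZJDC and 48.7, 45.0 and 41.0 in PBSDC, with log2 fold changes of 0.59 and 0.50. Trim34a had 13.6, 11.6 and 13.7 CPM in OMVSSDC, 13.5, 10.7 and 12.7 in ZJDC and 6.84, 7.13 and 7.81 in PBSDC, with log2 fold changes of 0.84 and 0.77. Both were clear of PBSDC in every library. Trim34b had 15.7, 17.7 and 29.9 CPM in OMVSSDC, 23.9, 21.6 and 23.5 in ZJDC and 10.5, 11.5 and 10.004 in PBSDC. Its OMVSSDC value rested in part on library 3, since the log2 fold change of 0.98 became 0.65 without that library and 1.48 with it alone; in ZJDC it was 1.11.

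The sensing member that fell was Trim65, known for attaching ubiquitin to the RNA sensor MDA5. It had 4.76, 6.20 and 6.97 CPM in OMVSSDC, 9.53, 9.79 and 8.43 in ZJDC and 14.3, 14.5 and 13.9 in PBSDC. The 3 groups did not overlap, and the log2 fold change was -1.25 (SE 0.141, adjusted p = 3.15e-05, edgeR) in OMVSSDC and -0.63 (SE 0.136, adjusted p = 0.00295) in ZJDC.

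Several well-known immune members did not pass the test. Trim21 had 19.5, 19.8 and 18.7 CPM in OMVSSDC, 19.1, 20.7 and 18.5 in ZJDC and 18.8, 15.9 and 16.2 in PBSDC, with overlapping groups and log2 values of 0.19 in both comparisons (edgeR adjusted p = 0.117 and 0.12). Trim14, an adaptor of the mitochondrial antiviral protein MAVS, had 30.4, 31.8 and 35.3 CPM in OMVSSDC, 28.5, 30.7 and 35.1 in ZJDC and 29.3, 28.1 and 27.5 in PBSDC. Trim26, which targets IRF3, had 159, 158 and 219 CPM in OMVSSDC, 210.3, 208 and 185 in ZJDC and 165, 168 and 166 in PBSDC. OMVSSDC library 3 lay above PBSDC for Trim26 and libraries 1 and 2 below it, and with library 3 as the lone OMVSSDC library Trim26 and Trim14 passed.

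**Figure D3:**
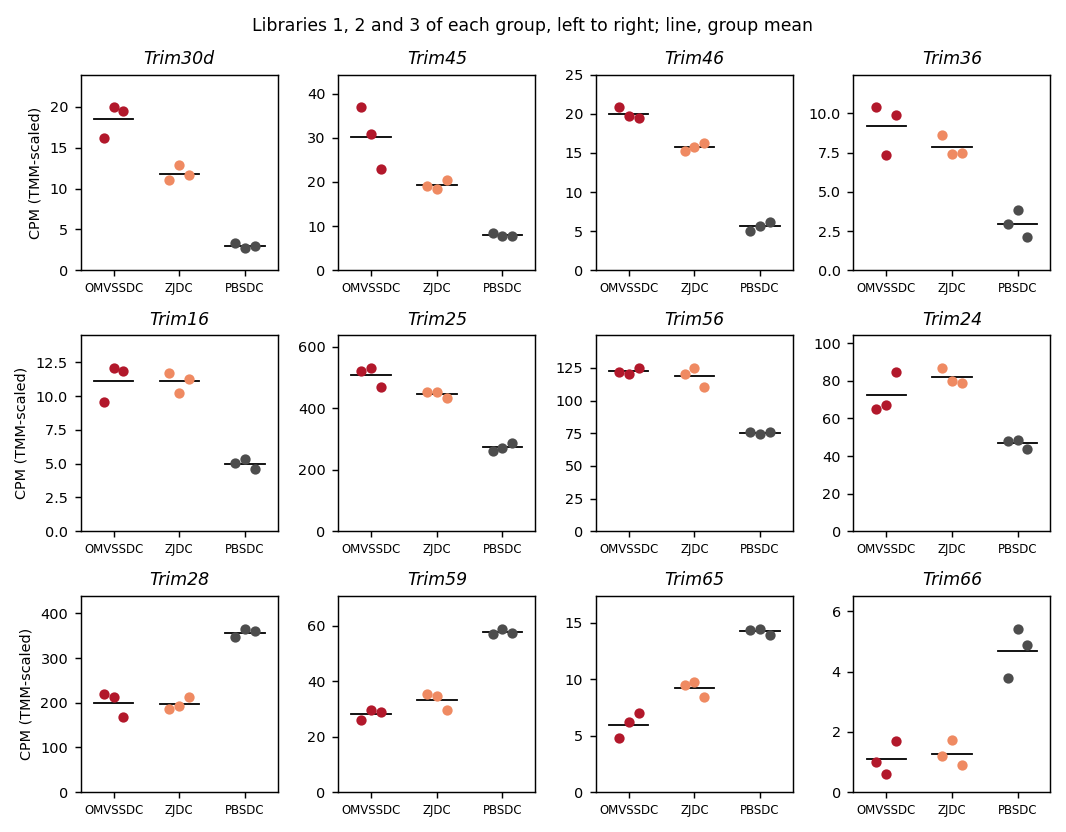
TMM-scaled CPM of 12 members in OMVSSDC, ZJDC and PBSDC, with libraries 1 to 3 from left to right and a line at the group mean; each panel has its own axis from 0. In the upper 8 panels PBSDC lies under both other groups, and in the lower 4 (Trim28, Trim59, Trim65, Trim66) above them.

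Of 9 members tied to NF-kB or Toll-like receptor signalling, 3 rose and 2 fell in OMVSSDC, and 2 rose and 2 fell in ZJDC. The 55.6% and 44.4% called lie under the 63.6% and 54.7% of all genes. Trim45, reported as a repressor of MAP kinase and NF-kB signalling, had 36.9, 31.0 and 22.9 CPM in OMVSSDC, 19.2, 18.3 and 20.4 in ZJDC and 8.44, 7.68 and 7.67 in PBSDC. Each OMVSSDC library was above each ZJDC library, and both groups were above PBSDC, at log2 fold changes of 1.93 (SE 0.165, adjusted p = 4.59e-06, edgeR) and 1.28 (SE 0.166, adjusted p = 0.000113). Trim68, reported to limit interferon-beta induction in human cells, rose by 0.92 and 0.88 on the log2 scale.

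Trim59, a membrane-anchored family member, fell. It had 26.0, 29.6 and 28.8 CPM in OMVSSDC, 35.2, 34.8 and 29.6 in ZJDC and 56.9, 58.8 and 57.4 in PBSDC, so that PBSDC stood clear above both groups. The log2 fold change was -1.03 (SE 0.0878, adjusted p = 4.22e-06, edgeR) in OMVSSDC and -0.80 (SE 0.0869, adjusted p = 3.41e-05) in ZJDC.

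The remaining calls of this group were small and depended on single libraries. Trim8, an activator of NF-kB signalling, had 92.4, 95.4 and 105 CPM in OMVSSDC, 98.9, 102 and 101 in ZJDC and 113, 112 and 110.3 in PBSDC. Its fall of 0.20 in OMVSSDC (edgeR adjusted p = 0.0198) did not pass without OMVSSDC library 1 or 2, or PBSDC library 1 (0.0594 to 0.0672), or with OMVSSDC library 3 as the lone OMVSSDC library (0.232). Trim13, anchored in the endoplasmic reticulum, had 8.44, 9.72 and 10.01 CPM in OMVSSDC, 8.06, 9.32 and 9.51 in ZJDC and 7.90, 6.996 and 7.16 in PBSDC; its rise of 0.35 in OMVSSDC (edgeR adjusted p = 0.031) did not pass without OMVSSDC library 2 or 3, or PBSDC library 2 or 3 (0.0599 to 0.101). Trim27, a nuclear and endosomal ligase, had 109, 103 and 82.8 CPM in OMVSSDC, 76.6, 77.3 and 80.3 in ZJDC and 91.4, 90.7 and 101 in PBSDC. In ZJDC it passed at -0.27 (edgeR adjusted p = 0.0372), and not without any 1 of the PBSDC or ZJDC libraries (0.0542 to 0.131). In OMVSSDC it was at 0.06 and did not pass; without library 3 it passed at 0.16 (adjusted p = 0.0122), and with library 3 alone it passed in the opposite direction, at -0.19 (adjusted p = 0.0361).

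The 4 members with a PHD finger and bromodomain act on chromatin. Of these, Trim24 rose and Trim28, Trim33 and Trim66 fell in OMVSSDC, and in ZJDC Trim24 rose and Trim28 and Trim66 fell. That is 75% and 50% of the 4 lower, beside 30.2% and 27.1% of all genes. The share higher was 25% in each, beside 33.4% and 27.6%. Trim28, which recruits histone deacetylase and methyltransferase complexes to KRAB zinc finger proteins at transposable elements, had 219, 214 and 168 CPM in OMVSSDC, 186, 193 and 214 in ZJDC and 346, 365 and 359.9 in PBSDC. Both groups lay far under PBSDC, at log2 fold changes of -0.83 (SE 0.1, adjusted p = 4.93e-05, edgeR) and -0.85 (SE 0.1, adjusted p = 5.86e-05).

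Trim66, related to the others but best known from testis, was rare: 1.01, 0.615 and 1.69 CPM in OMVSSDC, 1.18, 1.72 and 0.913 in ZJDC and 3.78, 5.42 and 4.89 in PBSDC. The groups were separate from PBSDC, with log2 fold changes of -2.10 (SE 0.336, adjusted p = 0.000343, edgeR) and -1.91 (SE 0.327, adjusted p = 0.000695). Trim24, a coregulator of nuclear receptors, went the other way, with 65.0, 66.9 and 84.9 CPM in OMVSSDC, 86.8, 79.8 and 79.1 in ZJDC and 48.0, 48.5 and 43.7 in PBSDC. Its log2 fold changes were 0.63 and 0.81 (edgeR adjusted p = 0.000449 and 0.000109).

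Trim33, which acts on SMAD4 in TGF-beta signalling, divided along the OMVSSDC libraries, with 55.5, 60.6 and 79.9 CPM in OMVSSDC, 83.5, 80.6 and 73.8 in ZJDC and 86.5, 83.9 and 79.2 in PBSDC. OMVSSDC library 3 was within the PBSDC range. The fall of 0.35 in OMVSSDC (edgeR adjusted p = 0.0281) did not pass without OMVSSDC library 1 or 2, or PBSDC library 1 or 2 (0.0664 to 0.0892), and the value was -0.06 with library 3 as the lone OMVSSDC library.

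Both microtubule-associated members rose in both comparisons, where 33.4% and 27.6% of all genes rose. Trim46, known for bundling microtubules in the axon, had 20.8, 19.8 and 19.5 CPM in OMVSSDC, 15.2, 15.8 and 16.2 in ZJDC and 5.07, 5.62 and 6.21 in PBSDC. The 3 groups were fully separate, with log2 fold changes of 1.83 (SE 0.106, adjusted p = 3.36e-07, edgeR) and 1.49 (SE 0.107, adjusted p = 2.2e-06). Trim36 had 10.4, 7.32 and 9.88 CPM in OMVSSDC, 8.63, 7.44 and 7.46 in ZJDC and 2.95, 3.84 and 2.12 in PBSDC, with log2 fold changes of 1.62 and 1.40 (edgeR adjusted p = 9.7e-05 and 0.000368).

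Of the 3 NHL-repeat members, 66.7% rose in OMVSSDC and 33.3% in ZJDC, beside 33.4% and 27.6% of all genes, and none fell. Trim3, a brain-enriched ligase, rose by 0.74 and 0.62 on the log2 scale, and Trim2 passed in neither comparison. Trim32, a ligase known from muscle, had 42.2, 38.6 and 31.1 CPM in OMVSSDC, 27.9, 27.0 and 29.6 in ZJDC and 31.1, 31.5 and 27.8 in PBSDC. OMVSSDC library 3 fell within the PBSDC range, and the rise of 0.30 in OMVSSDC (edgeR adjusted p = 0.0378) did not pass when any 1 library other than OMVSSDC library 3 was left out (0.0535 to 0.151); with library 3 as the lone OMVSSDC library it was 0.04.

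Of the 12 members of other or less defined roles, 6 rose and 1 fell in OMVSSDC, and 8 rose and 1 fell in ZJDC. Without Trim43a, 5 and 7 of 11 rose (45.5% and 63.6%), beside 33.4% and 27.6% of all genes. Trim16, which takes part in the autophagy of damaged endomembranes, had 9.52, 12.1 and 11.8 CPM in OMVSSDC, 11.7, 10.3 and 11.3 in ZJDC and 5.01, 5.35 and 4.60 in PBSDC. The rise was 1.16 in OMVSSDC and 1.15 in ZJDC on the log2 scale (edgeR adjusted p = 3.91e-05 and 5.69e-05). Trim37, which limits centriole assembly and supports peroxisomal import, had 49.99, 50.7 and 64.9 CPM in OMVSSDC, 63.2, 65.8 and 61.8 in ZJDC and 84.9, 82.9 and 84.2 in PBSDC. Both groups were under PBSDC in every library; the log2 fold change was -0.61 in OMVSSDC, -0.38 with library 3 as its lone library, and -0.40 in ZJDC.

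Trim29, which lacks a RING finger, had 8.66, 8.66 and 4.94 CPM in OMVSSDC, 5.92, 4.54 and 7.30 in ZJDC and 4.13, 2.74 and 2.26 in PBSDC. Its rise of 1.27 in OMVSSDC became 0.67 (edgeR adjusted p = 0.0635) with library 3 as the lone OMVSSDC library, and the rise of 0.95 in ZJDC (adjusted p = 0.0192) did not pass without PBSDC library 2 or 3 or ZJDC library 3 (0.0691 to 0.0809). Trim35 rose by 0.69 in OMVSSDC (0.44 with library 3 alone) and by 0.33 in ZJDC, where it did not pass without PBSDC library 3 (adjusted p = 0.0537). Trim7 rose by 0.97 and 0.87 and Trim41 by 0.52 and 0.26. Trim43a, which the count rule admitted through OMVSSDC and ZJDC, is given by its counts alone. Trim43c and Trim44 passed in ZJDC at log2 fold changes of 0.61 and 0.18 (edgeR adjusted p = 0.0365 and 0.048), and each lost that call when any of several libraries was left out (up to 0.116 for Trim43c and 0.162 for Trim44).

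By domain rather than role, 13 of the 25 members whose carboxy-terminal domain is a PRY-SPRY rose and 1 fell in OMVSSDC, and 14 rose and 2 fell in ZJDC. Without Trim43a these were 12 and 13 of 24 higher, and over all 25 the share called was 56% and 64%, beside 63.6% and 54.7% of all genes. By position, 7 members lie among 10 Trim rows on chromosome 7, positions 103868000 to 104157056 in the deposited table (no source used here names the table's build, which differs from the RefSeq build above). Across these 289 kb, Trim34a, Trim34b, Trim12c, Trim30c, Trim30a and Trim30d rose in both comparisons, none fell, and Trim30b did not pass. That is 85.7% of the 7 higher in each, beside 33.4% and 27.6% of all genes tested. These 6 are also among the 8 antiviral or sensing members that rose, so the counts by position and by role overlap. The median log2 fold change of the 7 was 0.84 in OMVSSDC and 0.77 in ZJDC. It was 0.31 and 0.28 over all members, and 0.05 and 0.01 over all genes. The neighbours Trim5, Trim6 and Trim12a had at most 5 counts in any library.

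**Figure D4:**
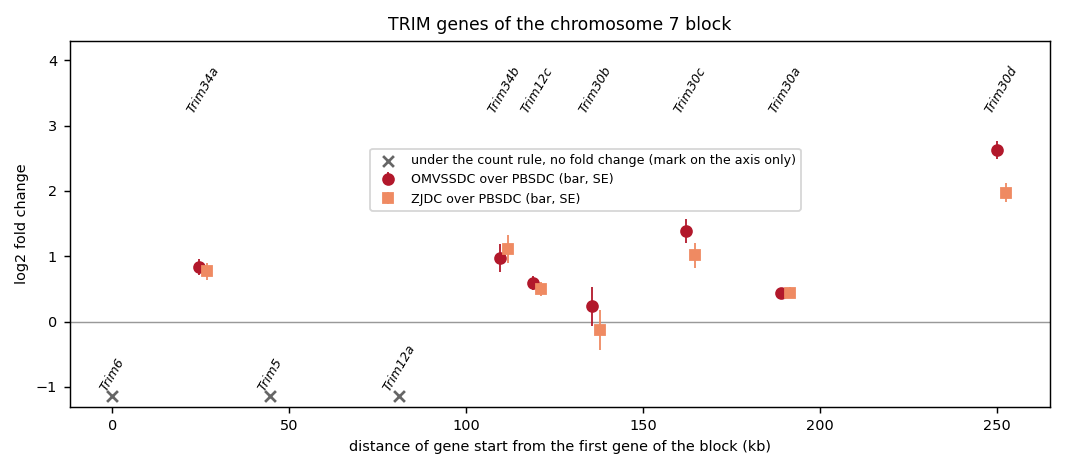
Log2 fold change over PBSDC against the distance of each gene's lower coordinate from that of the first gene of the chromosome 7 block (kb), with SE bars. For genes on the minus strand, such as Trim30a and Trim30d, the lower coordinate is not where transcription starts. Crosses mark genes under the count rule, which have no fold change. Trim30d, at the far end, has the highest values (2.63 in OMVSSDC and 1.97 in ZJDC), and its neighbour Trim30a is at 0.43 and 0.44.

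Some values are uncertain because reads could be divided between near-identical genes. Of the 50-base stretches of its longest protein-coding transcript, Trim34b shared 59% with other genes and Trim34a 41.3%. By the same measure Trim43b shared 48.8%, Trim43a 48%, Trim43c 42.4%, Trim12c 32.7% (mostly with Trim5) and Trim13 14.5%. Trim30d shared 8.29% and Trim30a 6.53%, so most of their sequence told them apart. Trim65 and Trim47 overlap on the same strand over 5365 bases of their gene spans. On the opposite strand Trim14 overlaps Nans over 9852 bases, Trim28 overlaps Zbtb45 over 6137, Trim46 overlaps Krtcap2 over 344 and Trim41 overlaps Rack1 over 31. Whether strand was used in counting is not given, so reads inside the overlaps on opposite strands cannot be assigned with certainty.

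Genes that work with TRIM proteins were counted in 4 lists. Of 16 genes that sense RNA or DNA and relay the signal, 9 rose and 3 fell in OMVSSDC, and 9 rose and 3 fell in ZJDC. That is 56.2% higher in each, beside 33.4% and 27.6% of all genes, and 18.8% lower, beside 30.2% and 27.1%. Irf7, the interferon-induced transcription factor, had 652, 644 and 624 CPM in OMVSSDC, 450.3, 432 and 449 in ZJDC and 151, 148 and 169.9 in PBSDC. The 3 groups were separate, with log2 fold changes of 2.04 and 1.51 (edgeR adjusted p = 1.65e-08 and 1.44e-07). Ifih1, which encodes MDA5, rose by 1.26 and 1.27 and Ikbke, a kinase that activates IRF3, by 0.82 and 0.79. The DNA sensor Cgas and the adaptors Sting1 and Mavs fell in both comparisons, named here because they were the 3 that fell. Cgas was at -0.84 in OMVSSDC (-0.49 with library 3 as the lone OMVSSDC library) and at -0.42 in ZJDC, a call that ended without any 1 PBSDC library or ZJDC library 2 or 3 (adjusted p up to 0.107).

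Of 15 genes of the interferon receptor pathways, 8 rose and 1 fell in OMVSSDC, and 10 rose and 1 fell in ZJDC. The share called was 60% and 73.3%, beside 63.6% and 54.7% of all genes, and the share higher 53.3% and 66.7%, beside 33.4% and 27.6%. In ZJDC several of these calls ended when single libraries were left out, among them the only fall, Ifngr1 (edgeR adjusted p up to 0.152). Jak2, a cytoplasmic kinase bound to cytokine receptors, rose by 1.496 and 1.567 on the log2 scale, and Usp18, a negative regulator of the type I receptor, by 1.11 and 0.54. Of 11 E2 enzymes that supply RING ligases with ubiquitin, 2 rose and 4 fell in OMVSSDC, and 2 rose and 1 fell in ZJDC. The 54.5% and 27.3% called lie under the 63.6% and 54.7% of all genes. Without OMVSSDC library 3 these counts were 4 and 7, and 2 and 6, in fits that called 74.9% and 70.1% of all genes. The members that rose were Ube2l6, the E2 of the ubiquitin-like ISG15, at 1.42 and 1.30, and Ube2w, at 0.62 and 0.61; Ube2n, the E2 for lysine-63 chains, fell by 0.88 in OMVSSDC and by 0.70 in ZJDC.

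Of 15 genes that silence chromatin with TRIM28, itself counted among them, 2 rose and 12 fell in OMVSSDC, and 2 rose and 10 fell in ZJDC, where 33.4% and 27.6% of all genes rose and 30.2% and 27.1% fell. Some of these falls did not pass when single libraries were left out (edgeR adjusted p up to 0.131 in OMVSSDC and 0.102 in ZJDC). With OMVSSDC library 3 as the lone OMVSSDC library the counts in OMVSSDC were 2 and 9. Cbx3, a reader of methylated histone H3, had 55.2, 57.3 and 78.2 CPM in OMVSSDC, 94.1, 88.1 and 88.7 in ZJDC and 171, 158 and 169 in PBSDC. All were under PBSDC, at log2 fold changes of -1.39 and -0.88 (edgeR adjusted p = 4.7e-06 and 0.000135). The deacetylase Hdac1 fell by 0.94 and 0.67, and the remodeller Chd4 by 0.59 and 0.40. Family members under other symbols were few: Pml (TRIM19), the organiser of nuclear bodies, fell by 0.55 and 0.39, and Mid1 (TRIM18) was at -0.73 in OMVSSDC (edgeR adjusted p = 0.034), a call that ended without OMVSSDC library 1 or 2, PBSDC library 2 or ZJDC library 2 (0.0503 to 0.152); without OMVSSDC library 3 it was at -1.13, and with that library alone at -0.17.

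Set directly against ZJDC, OMVSSDC differed in 1 member, Trim30d, which was higher by 0.65 on the log2 scale (SE 0.121, adjusted p = 0.0358, edgeR). That is 2.33% of members, beside 1.95% of all genes tested (0.856% higher and 1.1% lower). No member was called lower, and none was called over 2-fold, as 0.0778% of all genes were upward and 0.0519% downward. At an unadjusted p under 0.05 there were 13 of the 43 members, beside 3675 of all 11568 genes tested. The groups did not overlap in 14 members (32.6%), beside 24% of all genes. The Trim30d call ended when any 1 library other than OMVSSDC library 3 was left out (adjusted p = 0.0743 to 0.187), while the fold change stayed between 0.59 and 0.74. It held with OMVSSDC library 3 as the lone OMVSSDC library, at 0.72 (adjusted p = 0.00943). Trim45 and Trim65 came next, at 0.65 and -0.62, each at an adjusted p of 0.0562.

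The number of calls between OMVSSDC and ZJDC rested on OMVSSDC library 3. Without it, 21 members passed, 12 higher and 9 lower in OMVSSDC, beside 55.6% of all genes tested. Trim45 was then higher by 0.80 (adjusted p = 6.84e-08, edgeR), Trim30d by 0.62 (adjusted p = 0.000108), Trim32 by 0.51 and Trim35 by 0.48, and Trim65 was lower by 0.73 (adjusted p = 0.000166), Trim33 by 0.45 and Trim26 by 0.34. With library 3 as the lone OMVSSDC library, Trim30d was the only member called. In the related lists, Irf7 (0.53, adjusted p = 0.0127), Usp18 (0.57, adjusted p = 0.0155), Ube2e1 (-0.35, adjusted p = 0.0392) and Hdac1 (-0.27, adjusted p = 0.0483) passed in OMVSSDC against ZJDC, and each lost the call when any of several single libraries was left out.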

How the data were processed

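Groups of the 9 DC2.4 libraries follow the titles of the samples. Per the submitters' processing notes, the tools were fastp 0.22.0, HISAT2 2.1.0 and HTSeq 0.9.1; no source used here names the genome build or says whether strand was used. The authors deposited whole-number read counts per gene, not normalized, and FPKM, which on checking were counts over gene length and library total (largest relative difference 1.9e-07).

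Counts were fitted in R 4.3.3 with edgeR 4.0.16: filterByExpr (minimum count 10, minimum total count 15, leaving 11568 genes), TMM, a robust quasi-likelihood model of group over 9 libraries, F-tests adjusted by Benjamini-Hochberg, threshold 0.05. SE is the fold change over the square root of F. On simulated data 92, 85 and 82 of 100 genes changed 2-fold were recovered for OMVSSDC against PBSDC, ZJDC against PBSDC and OMVSSDC against ZJDC. Of 205, 195 and 188 calls there, 15, 14 and 7 were false. Few genes were changed in the simulation and no library was an outlier, unlike here, so recovery in these data was not measured. Alternatives were other scalings and filters, DESeq2 1.42.0, limma 3.58.1 (voom), a replicate block, glmTreat, only 2 groups, and libraries left out. Per-library values are given for a panel of 19 immune and chromatin genes (Trim12a was no member) and for the 6 largest called changes each way per comparison with a mean of at least 1 CPM; at most 3 genes per related list are named, by smallest adjusted p, and others where a count singles them out; 1 related gene is not reported here. Members and lists were chosen with earlier results of these data known. Promoters are from RefSeq; 50-base sharing was computed on GENCODE M21 transcripts.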

Additional observations from a re-analysis of the deposited data

How the results depend on the processing

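Counts of members called against PBSDC stayed within 1.5 times under every alternative. Against ZJDC, OMVSSDC had 1 member called, and 2 with no filter on low counts (both higher), 9 with DESeq2 (7 higher, 2 lower), and 0 with the replicate block, with glmTreat or with only the 2 groups compared (11, 4 and 10 at an unadjusted p under 0.05). With single libraries left out the member count ranged from 0 to 21 (0 to 12 higher, 0 to 9 lower). Over all genes tested, this comparison had 226 calls (1.95%) as reported, 282 (1.65%) with no filter and 1570 (13.6%) with DESeq2. The replicate block and the fit of only the 2 groups called 0 of all genes, and glmTreat called 2. With single libraries left out, calls over all genes ranged from 0 to 6539 (55.6%). Same-numbered libraries did not deviate together (9 correlations from -0.388 to 0.0887); under the replicate block 26 and 25 members were called in OMVSSDC and ZJDC against PBSDC, losing Trim13, Trim32 and Trim33, and Trim27, Trim43c and Trim44. Without mitochondrially encoded genes in the total, the members' mean share was 2894 CPM in OMVSSDC, 2747 in ZJDC and 2365 in PBSDC, a setting that raises each value by construction.

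Directions turned only among log2 values that did not pass in the reported fit. Other members turned besides those listed further down. In OMVSSDC against PBSDC, leaving out single libraries gave -0.18 to 0.0075 for Trim11, -0.52 to 0.69 for Trim43b and -0.25 to 0.14 for Trim47. Trim44 ranged there from -0.10 to 0.0005. In ZJDC against PBSDC, Trim2 ranged from -0.45 to 0.028 and Trim30b from -0.53 to 0.086. Scaling by library size alone turned 5 members in OMVSSDC against PBSDC. In OMVSSDC against PBSDC, leaving out single libraries gave -0.070 to 0.18 for Trim26 and -0.026 to 0.16 for Trim27, which was at -0.19 with OMVSSDC library 3 as the lone OMVSSDC library. In OMVSSDC against ZJDC, leaving out single libraries gave -0.043 to 0.040 for Trim21, -0.021 to 0.13 for Trim14, -0.0062 to 0.083 for Trim56, -0.11 to 0.042 for Trim30a, -0.018 to 0.14 for Trim34a, -0.036 to 0.16 for Trim12c, -0.0029 to 0.14 for Trim13, -0.051 to 0.13 for Trim28, -0.64 to 0.13 for Trim66, -0.058 to 0.10 for Trim16 and -0.46 to 0.039 for Trim34b. With library 3 as the lone OMVSSDC library the values were 0.12 for Trim26, 0.16 for Trim30a, 0.053 for Trim8, 0.041 for Trim24, -0.24 for Trim28, 0.0032 for Trim33, 0.023 for Trim37, -0.29 for Trim29, 0.45 for Trim66 and 0.36 for Trim34b. Scaling by library size alone gave 0.060 for Trim21, 0.050 for Trim30a and 0.019 for Trim8; limma-voom gave 0.0030 for Trim21; Trim16 was at -0.0099 with RLE, -0.0049 with a minimum count of 30 and -0.0099 with DESeq2. The cause was not tested. Depth limits Trim2, Trim7, Trim30b, Trim43a to Trim43c and Trim66, which averaged under 3 CPM.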
